A study of Mus musculus with 37 samples.

Results

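The genes of *de novo* lipogenesis described here are *Fasn*, *Acaca*, *Acly*, *Elovl6*, *Scd1*, *Me1*, *Acss2*, *Thrsp*, *Srebf1* and *Mlxipl*, which were taken from the array table by their symbols. Each of the 10 genes had 1 probe set, out of 41155 probe sets on the array that are not controls, and the table holds 24657 gene symbols in all. Brown adipose tissue (BAT) came from male mice of 35 BXD strains, and of C57BL/6J and DBA/2J as their parents. The BXD strains are inbred lines from crosses of these parents, and each carries a fixed mixture of their alleles. All mice were on standard chow (Harlan) for life, were 29 weeks old and had been fasted overnight, so no fed or high fat group is part of these data. RNA from about 5 mice per strain was pooled evenly and run on 1 array per strain. A difference between strains therefore includes the error of the array, and p-values measure only the spread over strains. The values are rescaled units, for which the authors brought the mean of each array to 8 and its standard deviation to 2, and no folds are given because the log base before rescaling is not stated.

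Lipogenesis builds fatty acids from carbon that leaves the mitochondrion as citrate. ATP-citrate lyase (*Acly*) splits citrate to acetyl-CoA, acetyl-CoA carboxylase (*Acaca*) makes malonyl-CoA, and fatty acid synthase (*Fasn*) joins these units to palmitate with NADPH, which malic enzyme (*Me1*) helps to supply. Transcription of these enzymes is driven by SREBP-1c, encoded by *Srebf1* and activated by insulin, and by ChREBP, encoded by *Mlxipl* and activated by glucose. Brown fat is known as a tissue with very active lipogenesis alongside fatty acid oxidation, and fasting lowers the program.

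The promoters of *Fasn*, *Thrsp* and *Mlxipl* are shown because they hold the letters ATCACC, a core of the sterol regulatory element that SREBP can bind. The sequences are the 250 bases before the RefSeq transcript start in the assembly GRCm38.p6, written along the strand of the gene from 5′ to 3′. Capitals mark ATCACC on either strand, which reads GGTGAT on the reverse strand, and the palindrome CACGTG, an E-box core. They lie at chr11:120824548-120824797 (minus strand) for *Fasn*, chr7:97417551-97417800 (minus strand) for *Thrsp*, and chr5:135089640-135089889 and chr5:135106641-135106890 (both plus strand) for the upstream and the downstream start of *Mlxipl*.
Fasn: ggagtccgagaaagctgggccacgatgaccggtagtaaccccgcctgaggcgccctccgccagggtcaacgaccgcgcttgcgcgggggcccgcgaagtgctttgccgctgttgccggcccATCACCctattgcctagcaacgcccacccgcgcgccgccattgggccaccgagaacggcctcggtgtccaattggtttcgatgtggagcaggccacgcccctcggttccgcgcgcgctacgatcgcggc
Thrsp: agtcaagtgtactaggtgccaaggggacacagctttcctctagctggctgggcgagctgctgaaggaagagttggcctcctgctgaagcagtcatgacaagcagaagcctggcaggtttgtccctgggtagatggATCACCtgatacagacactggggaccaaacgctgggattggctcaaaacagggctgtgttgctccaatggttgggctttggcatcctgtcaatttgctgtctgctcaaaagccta
Mlxipl, upstream start: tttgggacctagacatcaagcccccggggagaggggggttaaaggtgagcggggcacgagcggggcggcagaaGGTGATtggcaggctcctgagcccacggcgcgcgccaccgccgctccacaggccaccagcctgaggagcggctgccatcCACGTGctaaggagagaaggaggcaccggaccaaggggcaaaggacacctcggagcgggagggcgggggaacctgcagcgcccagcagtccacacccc
Mlxipl, downstream start: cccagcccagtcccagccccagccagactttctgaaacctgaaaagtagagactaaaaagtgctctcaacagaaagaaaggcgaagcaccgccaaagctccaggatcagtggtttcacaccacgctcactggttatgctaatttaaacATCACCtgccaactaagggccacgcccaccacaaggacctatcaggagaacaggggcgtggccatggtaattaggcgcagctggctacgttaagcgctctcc

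Promoter windows were found for 9 of the 10 genes, with 13 windows in all, and *Scd1* was without one. ATCACC was present in 4 of these 13 windows and in 8.48% of all 32851 windows of the same length. The 4 windows belong to 3 of the 9 genes, since both *Mlxipl* windows hold it. Windows of 1 gene are not independent, and the share over all genes was not counted. CACGTG was present in 1 of the 13, the upstream *Mlxipl* window, against 6.02% of all windows. The reversed ATCACC of that window overlaps a reversed CCAAT, the letters bound by NF-Y, which stood in 7 of the 13 windows and in 33.8% of all. The matches start 129 bases before the start of *Fasn*, 115 before that of *Thrsp*, and 177 and 102 before the upstream and downstream starts of *Mlxipl*. A match describes letters in these windows and does not show binding.

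All 10 transcripts lay above background in all 35 strains, with background taken as the 95th percentile of 1128 olfactory receptor probe sets, 7.94 units. *Ucp1*, the uncoupling protein that defines brown fat, lay between 14.82 and 15.69 over the strains. Other tissue was present too. *Acta1* of skeletal muscle ranged from 12.05 to 15.31, *Lep* of white fat from 9.08 to 13.38, and *Alb* of liver reached 14.96 in BXD70 and 13.93 in DBA/2J against a BXD median of 7.85. In pooled whole tissue, fewer brown adipocytes and less RNA per adipocyte cannot be told apart.

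The acetyl-CoA and malonyl-CoA steps varied widely between strains. *Acly* lay at 12.51 in the lowest strain, BXD85, at a median of 13.61 and at 15.14 in the highest, BXD87. Its SD of 0.71 (mean 13.67, n = 35) stood at percentile 98.4 of the 19436 probe sets above background, whose median SD was 0.19. *Acss2*, the cytosolic enzyme that makes acetyl-CoA from acetate, ran from 11.22 in BXD61 over a median of 11.98 to 13.36 in BXD101. It was skewed upwards, with BXD87 and BXD101 more than 2 SD above the mean of 12.11 ± 0.51 (SD, n = 35). *Acaca* ran from 12.36 in BXD85 over a median of 13.64 to 14.47 in BXD87, with a mean of 13.72 ± 0.46 (SD, n = 35).

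*Fasn* had a narrower distribution with 1 strain apart. It was lowest in BXD85 at 14.66, had a median of 15.72 and was highest in BXD45 at 15.98, with a mean of 15.69 ± 0.25 (SD, n = 35). BXD85 lay 0.574 units below the next strain, BXD61 at 15.23, and the range of 1.33 units fell to 0.752 without BXD85 and BXD87. The 29 strains within 1 SD of the mean thus covered little of the range. *Me1* ran from 11.15 in BXD85 over a median of 12.37 to 13.49 in BXD56, at a mean of 12.33 ± 0.51 (SD, n = 35). BXD56 was high for *Me1* without being the highest strain at any other of the genes.

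Chain elongation and desaturation differed in their spread. *Elovl6*, which lengthens palmitate, ran from 13.12 in BXD61 over a median of 14.11 to 14.93 in BXD87, with a mean of 14.11 ± 0.49 (SD, n = 35). *Scd1*, the desaturase that places the double bond of oleate, had the smallest spread of the genes, from 15.56 in BXD85 over a median of 15.81 to 16.02 in BXD71. Its SD of 0.09 stood at percentile 1.56 of the probe sets above background. *Fasn* and *Scd1* both lie near the top of the scale, where no value on any array exceeded 16.47 and 78 probe sets with a mean of at least 15 had a median SD of only 0.09. Against probe sets within 0.5 units of their own level, *Scd1* stood at percentile 79.2 and *Fasn* at 100. A ceiling of the array at this level was not tested.

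The accessory gene and the regulators were as follows. *Thrsp*, or Spot 14, a small protein that accompanies lipogenic enzymes, ran from 12.47 in BXD85 over a median of 13.05 to 14.14 in BXD87, with a mean of 13.06 ± 0.36 (SD, n = 35). BXD87 stood clear of the next strain, BXD45 at 13.61, and the range of 1.68 units was 1.10 without the highest and the lowest strain. *Srebf1* ran from 10.004 in BXD83 over a median of 10.43 to 11.04 in BXD68, with a mean of 10.44 ± 0.28 (SD, n = 35). *Mlxipl* ran from 12.19 in BXD84 over a median of 12.48 to 13.24 in BXD87, with a mean of 12.56 ± 0.27 (SD, n = 35). The SDs of the regulators stood at percentiles 75.1 and 73.9 of the probe sets above background, below those of 6 of the 8 enzyme and accessory genes.

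**Figure D1:**
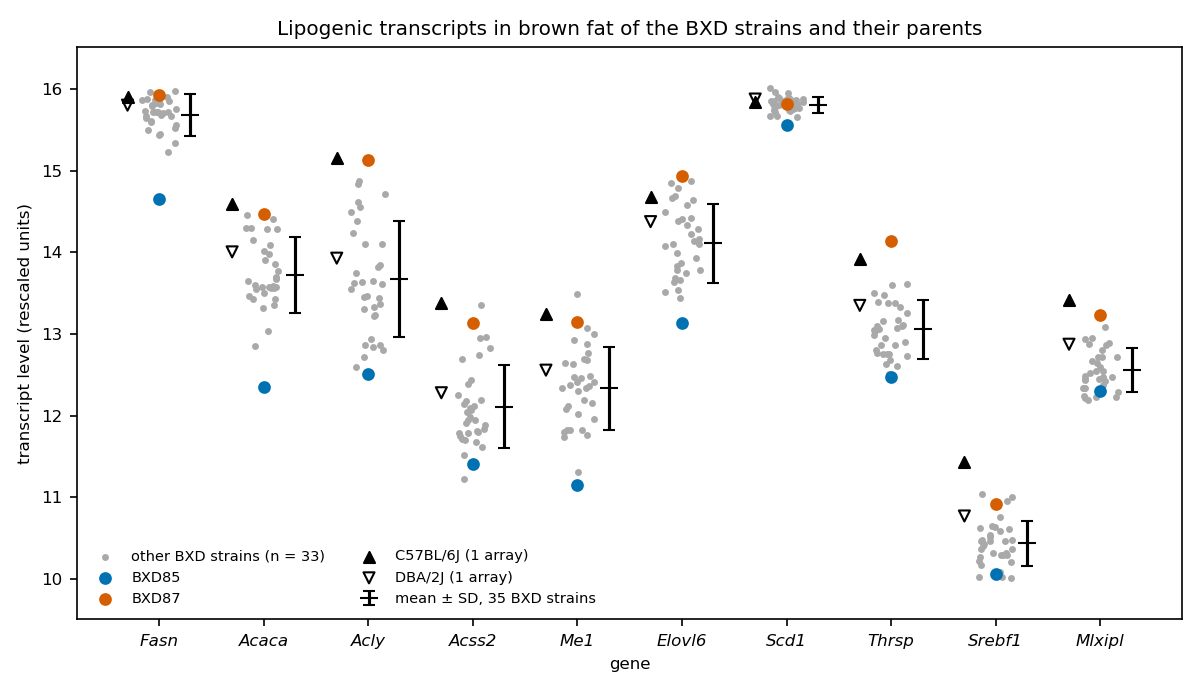
Transcript levels of the 10 genes in rescaled units, with 1 point per BXD strain, the mean and SD of 35 strains as a bar, and the parents as triangles. BXD85 sits lowest for 6 genes and BXD87 highest for 5, and C57BL/6J lies above all BXD strains for *Acaca*, *Acly*, *Acss2*, *Srebf1* and *Mlxipl*.

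The same strains stood at the ends of most of these distributions. Because the 10 genes covary over the strains, the counts in this paragraph are not counts of independent genes. BXD85 was the lowest of 35 strains at 6 of the 10 genes (*Fasn*, *Acaca*, *Acly*, *Scd1*, *Me1* and *Thrsp*) and among the lowest 5 at 9, with *Mlxipl* the exception. BXD61 was lowest at *Elovl6* and *Acss2*, and BXD103 was among the lowest 5 at 7 genes. At the other end BXD87 was highest at 5 genes and among the highest 5 at 9 (all but *Scd1*), and among the highest 5 were also BXD45 at 9, BXD101 at 8 and BXD68 at 7. All 10 genes lay above their own means in 7 strains (BXD45, BXD68, BXD70, BXD75, BXD87, BXD95 and BXD101) and none did in 4 (BXD61, BXD85, BXD97 and BXD103). The mean standardized level of the 8 enzyme and accessory genes ran from -2.33 SD in BXD85 to 1.64 SD in BXD87. How often these strains stood at the ends over all probe sets was not counted. Whether their place is particular to the lipogenic genes is therefore not known.

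Some strains did not follow this order. BXD71 had the highest *Scd1*, at 16.02, while its *Acly* at 12.87 and its *Thrsp* at 12.60 ranked 6 and 3 from the bottom. In BXD89 the enzyme and accessory genes averaged 0.998 SD above the mean, with *Thrsp* at 13.51, while *Srebf1* at 10.28 and *Mlxipl* at 12.29 ranked 10 and 6 from the bottom. BXD83 had the lowest *Srebf1* and BXD79 the next, at 10.02. Their *Acly* values were not low but middling, at 13.64 and 13.84, ranking 20 and 24 from the bottom against a median of 13.61. In BXD43 the regulators parted, with *Mlxipl* at 12.88 ranking 30 of 35 and *Srebf1* at 10.17 ranking 6. These descriptions of single strains rest on 1 array each.

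**Figure D2:**
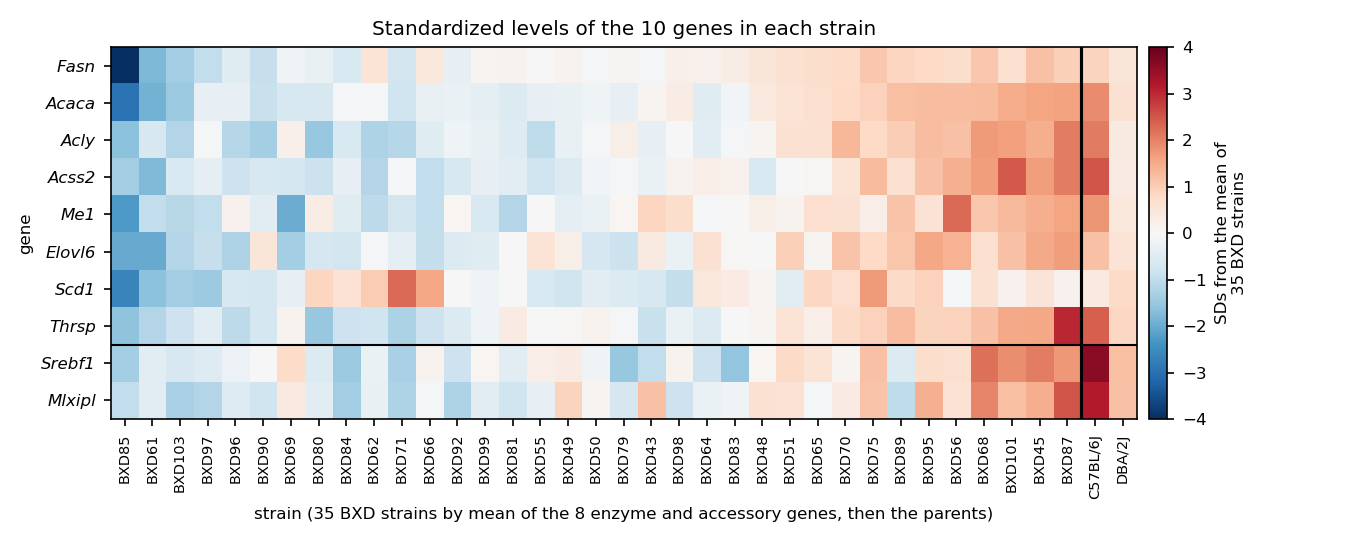
Standardized level of each gene (SDs from the mean of 35 BXD strains, colour) in every strain, ordered by the mean of the 8 enzyme and accessory genes, with the parents at the right and the regulators below the line. Columns are mostly of 1 colour at both ends, from BXD85 at -2.33 to BXD87 at 1.64 SD, and the *Scd1* row breaks the pattern at BXD71.

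The parents were measured on 1 array each, so their difference was not tested. The 10 genes covary over the BXD strains, so the counts below are not counts of independent genes. C57BL/6J lay above every BXD strain at 5 of the 10 genes, against 3.25% of all probe sets and 3.61% of those above background. These were *Srebf1* at 11.43, *Mlxipl* at 13.41, *Acaca* at 14.60, *Acly* at 15.15 and *Acss2* at 13.38. Its *Srebf1* exceeded the highest BXD strain by 0.389 units, whereas *Acly* and *Acss2* exceeded it by only 0.014 and 0.019. DBA/2J lay above every BXD strain at 0 of the 10 genes (1.04% of all probe sets). It was lower than C57BL/6J at 9 of the 10, with *Scd1* the exception at 15.88 against 15.84, and 47.8% of probe sets above background were lower in DBA/2J. The largest gaps, DBA/2J minus C57BL/6J, were -1.22 for *Acly* and -1.10 for *Acss2*, while the absolute gap over all probe sets had its median at 0.182 and its 95th percentile at 0.77. All 10 genes were above the BXD mean in both parents, and the share of all probe sets above it was not counted. The 8 enzyme and accessory genes averaged 1.63 SD in C57BL/6J and 0.544 SD in DBA/2J. The DBA/2J array carried liver transcripts, and their part in these gaps was not tested.

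The lipogenic transcripts rose and fell together over the strains, with *Scd1* less close to most of the others. A slope of every probe set on each gene in turn was fitted with limma over the 35 strains, and a transcript was called where its adjusted p (Benjamini-Hochberg over 41154 probe sets) was under 0.05. A pair counted as called where both fits that hold it called it. Of all probe sets, 0.491% were called with *Fasn*, 0.899% with *Acaca*, 0.539% with *Acly*, 4.32% with *Elovl6*, 0.0194% with *Scd1*, 0.605% with *Me1*, 1.2% with *Thrsp*, 0.936% with *Acss2*, 0.972% with *Srebf1* and 0.34% with *Mlxipl*. Against these shares, 34 of the 45 pairs among the 10 genes were called, all with a positive slope. Pearson's r over all pairs ran from 0.206 to 0.916 with a median of 0.698. Without *Scd1* all 21 pairs of the other 7 enzyme and accessory genes were called, with r from 0.647 to 0.916 and adjusted p of at most 0.0108 by limma.

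The tightest pair was *Acly* and *Thrsp*, at r = 0.916 and Spearman's rho = 0.892, each with p = 1e-05 in 100000 permutations, which is the smallest they can give (two-sided, n = 35). Leaving out the strains farthest from the median of *Acly*, BXD68 and BXD87, gave r = 0.910. *Fasn* and *Acaca*, which hold consecutive steps, followed at r = 0.895 (rho = 0.869, permutation p = 1e-05 for each), and r was 0.850 without BXD61 and BXD85. *Acly* and *Acss2*, the sources of cytosolic acetyl-CoA, had r = 0.868 (rho = 0.833, permutation p = 1e-05 for each), with 0.831 without BXD68 and BXD87. The weakest of the 21 pairs was *Fasn* with *Acss2* at r = 0.647 (permutation p = 0.00011), although its rho of 0.741 was higher.

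None of the 7 pairs of *Scd1* with the other enzyme and accessory genes was called by limma, and 4 of the 7 had an unadjusted permutation p under 0.05. The closest was *Fasn*, at r = 0.663 (permutation p = 1e-05) and rho = 0.588 (permutation p = 0.00028). Its adjusted p was 0.0547 and 0.0526 in the limma fits in the 2 directions. The *Fasn* fit called other probe sets down to an absolute r of 0.563, so the missing call does not mean a weak r. This pair rested partly on BXD61 and BXD85, since r was 0.454 without them. *Scd1* with *Acaca* had r = 0.541 (permutation p = 0.00085), and r was 0.412 without BXD85 and BXD87. With *Thrsp* r was 0.269, the lowest of the 7 pairs. The small range of *Scd1* limits what a correlation can show here.

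**Figure D3:**
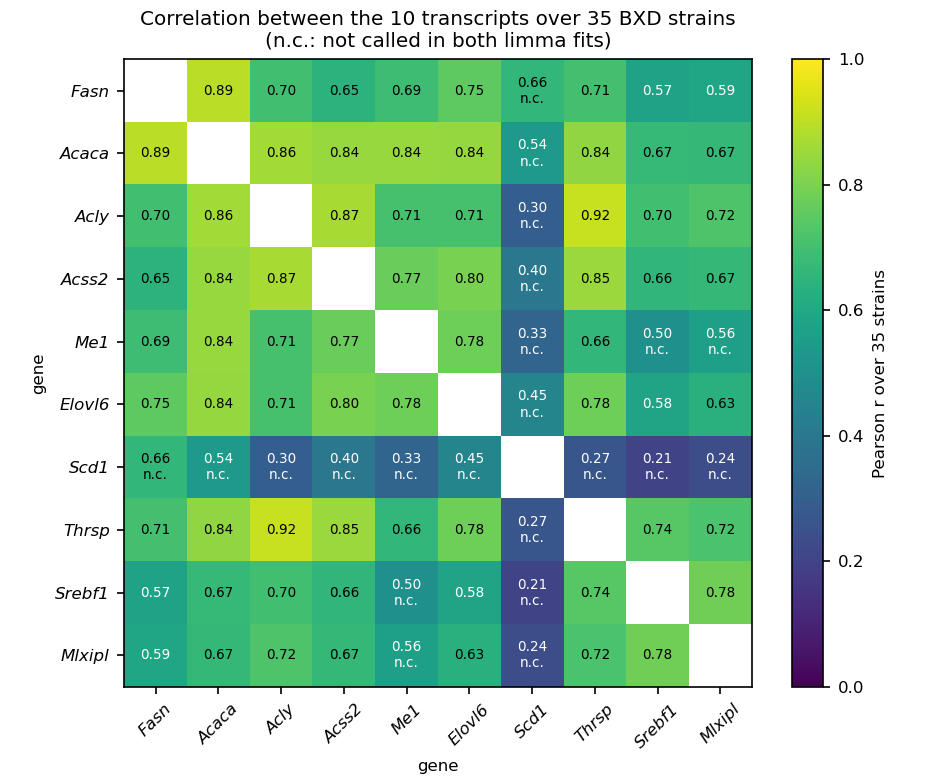
Pearson's r over 35 BXD strains for each pair of the 10 genes, by colour and printed, with n.c. for pairs not called in both limma fits. The *Scd1* row and column hold 9 of the 11 pairs not called, and the others are *Me1* with *Srebf1* and with *Mlxipl*.

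The link to *Srebf1* was seen at 6 of the 8 enzyme and accessory genes, namely *Thrsp*, *Acly*, *Acaca*, *Acss2*, *Elovl6* and *Fasn*, all with a positive slope, while 0.695% of all probe sets were called with a positive slope. *Thrsp* rose by 0.97 ± 0.15 units (SE) per unit of *Srebf1* (r = 0.738, rho = 0.694, permutation p = 1e-05 for each, adjusted p = 0.000424 by limma), and r was 0.703 without BXD45 and BXD68, the strains with the highest *Srebf1*. For *Acly* the slope was 1.81 ± 0.31 (SE), with r = 0.698, rho = 0.627 and an adjusted p of 0.00115 by limma. *Acaca* had r = 0.671 and rho = 0.602, with 0.611 without those strains. *Acss2* had r = 0.658 and rho = 0.424, and r was 0.567 without BXD45 and BXD68. *Elovl6* and *Fasn* were near the threshold, at r = 0.583 (adjusted p = 0.025 by limma) and r = 0.575 (adjusted p = 0.0366 by limma). *Me1* had r = 0.501 (permutation p = 0.0021) with an adjusted p of 0.0899 by limma, and *Scd1* had r = 0.206 with a slope of 0.07 ± 0.07 (SE).

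The link to *Mlxipl* held for the same 6 genes, again with positive slopes, against 0.248% of all probe sets with a positive slope. *Acly* rose by 1.91 ± 0.31 units (SE) per unit of *Mlxipl* (r = 0.723, rho = 0.654, permutation p = 1e-05 and 2e-05, adjusted p = 0.00174 by limma), and r was 0.628 without BXD68 and BXD87. *Thrsp* had r = 0.717 and rho = 0.626, with 0.603 without those strains. For *Acss2* r was 0.667 against a rho of 0.499, for *Acaca* 0.666 against 0.657 and for *Elovl6* 0.635 against 0.621. *Fasn*, at r = 0.587, had the higher rho, 0.707, and an adjusted p of 0.0492 by limma. *Me1* fell just short of the threshold at r = 0.563 (permutation p = 0.00042, adjusted p = 0.0594 by limma), and *Scd1* had r = 0.236 with a slope of 0.08 ± 0.07 (SE).

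The calls were not equally firm. Without the strains farthest from the median of the regulator, *Thrsp*, *Acly* and *Acaca* remained called with *Srebf1* (3 of 8) and only *Acly* with *Mlxipl* (1 of 8). When single strains were left out in turn, the call of *Fasn* with *Mlxipl* was lost in 28 of 35 runs and with *Srebf1* in 7. *Elovl6* was lost with *Srebf1* without BXD45, BXD85 or BXD87 and with *Mlxipl* without BXD45 or BXD87. *Me1* gained a call with *Mlxipl* without BXD49, BXD69, BXD89 or BXD98, and with *Srebf1* without BXD69.

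**Figure D4:**
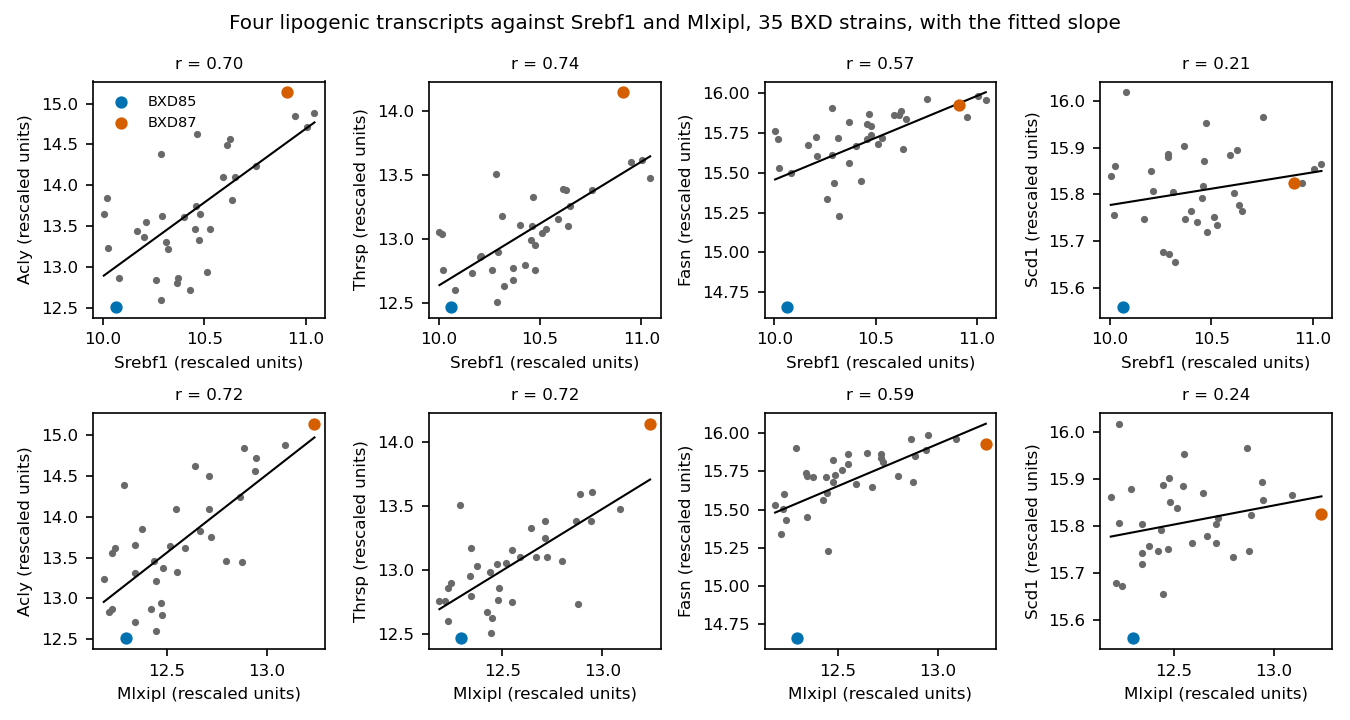
*Acly*, *Thrsp*, *Fasn* and *Scd1* against *Srebf1* (top) and *Mlxipl* (bottom) in rescaled units, with 1 point per BXD strain and the fitted slope as a line. *Acly* and *Thrsp* rise along both regulators (r from 0.698 to 0.738), *Fasn* has BXD85 far below the line at 14.66, and *Scd1* has a nearly flat line.

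*Srebf1* and *Mlxipl* rose and fell together themselves, at r = 0.785 and rho = 0.735 (permutation p = 1e-05 and 2e-05, adjusted p = 9.37e-05 by limma for *Mlxipl* on *Srebf1*), with r = 0.729 without BXD45 and BXD68. Of the 400 transcripts called with *Srebf1* and the 140 called with *Mlxipl*, 91 were in common, which is 22.8% of the former and 65% of the latter. Both regulators were therefore entered in 1 limma fit, scaled to an SD of 1. The slope on *Srebf1* given *Mlxipl* was called at 0 of the 8 enzyme and accessory genes (5 of 41153 probe sets, 0.0121%), and 1 of the 8 had an unadjusted p under 0.05. The slope on *Mlxipl* given *Srebf1* was called at 0 of 8 (0 of 41153 probe sets, 0%), and 2 of the 8 had an unadjusted p under 0.05. The largest were *Acly* on *Mlxipl*, 0.32 units per SD (95% interval from 0.06 to 0.59, adjusted p = 0.712 by limma), and *Acly* on *Srebf1*, 0.24 (from -0.02 to 0.50, adjusted p = 0.613). For *Thrsp* the slopes were 0.17 on *Srebf1* (from 0.03 to 0.30) and 0.13 on *Mlxipl* (from -0.00205 to 0.26).

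The difference between the slopes on the regulators was also tested and was called at 0 of the 8 genes (1 of 41153 probe sets, 0.00243%), with 0 of 8 at an unadjusted p under 0.05 in limma. For *Acly* it was -0.08 units per SD, *Srebf1* minus *Mlxipl*, with a 95% interval from -0.58 to 0.41, and for *Elovl6* -0.12, from -0.51 to 0.27. These intervals are wider than the slopes, so the data cannot tell which regulator transcript a gene follows more closely. Both regulators were measured as transcripts, by 1 probe set each, and the activity of their proteins was not measured. Transcripts from different starts of *Srebf1* or of *Mlxipl* could not be told apart with 1 value per gene. With both slopes tested together, 5 of the 8 genes were called (*Acaca*, *Acly*, *Elovl6*, *Thrsp* and *Acss2*), against 0.549% of all probe sets, and *Fasn* had an adjusted p of 0.0576 by limma.

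Among 13514 other genes above background, those with a pattern most like the regulators and the lipogenic mean are given by r over 35 strains, with no test. Among those most like *Srebf1* were *Cspg4* (0.803), *Gm6484* (0.802), *Acot11*, an acyl-CoA thioesterase of brown fat (0.797), and *Tmem120b* (0.790). *Acot11* was also among the closest to *Mlxipl* (0.752), after *Atp4b* (0.782) and before *Parm1* (0.733), *Mrpl50* (0.726) and *Sorcs2* (0.725). Most opposed were *Il6st*, the shared receptor chain gp130 (-0.760 with *Srebf1* and -0.694 with *Mlxipl*), *Angptl4*, a fasting-induced inhibitor of lipoprotein lipase (-0.754 and -0.694), *Ncor1*, a corepressor (-0.742 with *Srebf1*), and *Adam10*, a membrane protease (-0.695 with *Mlxipl*). *Angptl4* was lowest in BXD87 at 12.65 and highest in BXD103 at 13.76.

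Closest to the mean of the 8 enzyme and accessory genes was *Slc25a1*, the mitochondrial citrate carrier, at r = 0.938, from 12.80 in BXD85 to 14.63 in BXD45, and r was 0.921 without the farthest strains. *Tkt*, the transketolase of the pentose phosphate pathway, followed at 0.908, then *Tlcd1* (0.890), *LOC100861787* (0.889) and *Slc2a5*, the fructose transporter (0.879). *Slc2a5* had a wide range, from 8.08 in BXD85 to 11.24 in BXD87. Opposed were *Slco2b1* (-0.740), *Il6st* (-0.734) and *Fnip2* (-0.730).

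Genes of linked pathways were counted in lists. Over all probe sets, 0.695% were called with a positive slope on *Srebf1* and 0.248% on *Mlxipl*. Of 9 genes that supply citrate and NADPH, 5 were called with *Srebf1* and 4 with *Mlxipl*, all positive, with a median r of 0.576 and 0.539, where the median over all probe sets was 0.02 for both regulators. *Pgd*, of the oxidative pentose phosphate pathway, had r = 0.736 with *Srebf1* and 0.693 with *Mlxipl*, and *Taldo1* 0.666 and 0.630. *Slc25a1* had 0.592 and 0.644. Of 13 other lipogenic enzymes 3 were called with *Srebf1* and 2 with *Mlxipl*. *Scd2*, a desaturase related to *Scd1*, was called with both, at r = 0.706 and 0.613 and with a wide range from 10.61 in BXD103 to 13.99 in BXD87. *Tecr*, a reductase of chain elongation, had 0.636 and 0.654, and *Scd3* had 0.635 and 0.467 at a mean of 7.34, below the background limit.

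The next 2 lists stand beside the same shares of all probe sets called with a positive slope, 0.695% with *Srebf1* and 0.248% with *Mlxipl*. Of 9 genes of glyceride synthesis, 3 were called with *Srebf1* and 0 with *Mlxipl* by limma, and 4 of the 9 had an unadjusted permutation p under 0.05 with *Mlxipl*. The 3 were *Agpat2*, the acyltransferase that makes phosphatidic acid (r = 0.750 and 0.537), *Gpd1*, which makes glycerol 3-phosphate (0.681 and 0.550), and *Pnpla3* (0.676 and 0.529). Whether these genes differ in their link to the 2 regulators was not tested by this count. In the list on insulin signal and glucose entry, *Slc2a4*, the insulin-responsive glucose transporter (0.733 and 0.721), and *Hk2*, a hexokinase (0.653 and 0.707), were called with both regulators, and 6 of the 8 genes were called with neither. *Akt1*, the next in size, had -0.508 and -0.580.

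Of 15 genes around SREBP-1 and ChREBP themselves, 3 were called with *Srebf1* and 2 with *Mlxipl*, all positive, against 0.695% and 0.248% of all probe sets with a positive slope. The median r of the list was 0.231 and 0.139. *Mlx*, the partner with which ChREBP binds DNA, had r = 0.697 and 0.613, and *Mid1ip1*, a relative of *Thrsp*, 0.667 and 0.618. *Insig1*, which holds SREBP in the endoplasmic reticulum and is itself an SREBP target, had 0.543 and 0.519 and was called with *Srebf1* alone at an adjusted p of 0.0487 by limma. *Srebf2*, with 0.560 and 0.479, was not called.

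Of 14 genes of the cholesterol list, 7 were called with *Srebf1* and 8 with *Mlxipl*, all positive, against 0.695% and 0.248% of all probe sets with a positive slope. The median r was 0.603 and 0.580, and the genes ranged from -0.125 to 0.737 with *Srebf1* and from -0.03 to 0.709 with *Mlxipl*, so that some did not follow. *Sc5d* (0.737 and 0.582) and *Nsdhl* (0.712 and 0.709), enzymes of sterol synthesis, were among the closest. *Nsdhl* ran from 10.47 in BXD81 to 12.51 in BXD87. These genes are known as SREBP-2 targets rather than members of the fatty acid pathway.

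Negative slopes were called at 3 of the listed genes, and over all probe sets at 0.277% with *Srebf1* and 0.0923% with *Mlxipl*. Of 5 ChREBP target genes only *Txnip*, an inhibitor of glucose uptake, was called, and it was opposed to both regulators (r = -0.742 and -0.615), running from 14.31 in BXD87 to 14.90 in BXD83. *Arrdc4*, its relative, had -0.353 and -0.463, and *Khk*, fructokinase, had 0.284 and 0.221, and neither was called. Of 10 genes of fatty acid oxidation only *Cpt1a*, the carnitine palmitoyltransferase that malonyl-CoA inhibits, was called, also opposed to both (-0.654 and -0.612), from 10.06 in BXD87 to 11.41 in BXD80. *Cpt2* had 0.334 and 0.233 and *Ehhadh* -0.310 and -0.211, and neither was called. In the brown fat list of 8 genes, *Pdk4*, a kinase that shuts off pyruvate dehydrogenase and rises on fasting, was the only one called, with *Srebf1* (-0.642, adjusted p = 0.0453 by limma) and not with *Mlxipl* (-0.403). *Prdm16* had 0.560 and 0.554, *Cox8b* 0.452 and 0.420, and *Ucp1* 0.400 and 0.275, without a call. At an unadjusted permutation p under 0.05 there were 5 of the 8 brown fat genes with *Srebf1* and 3 with *Mlxipl*. Their r was positive except for *Pdk4*.

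**Figure D5:**
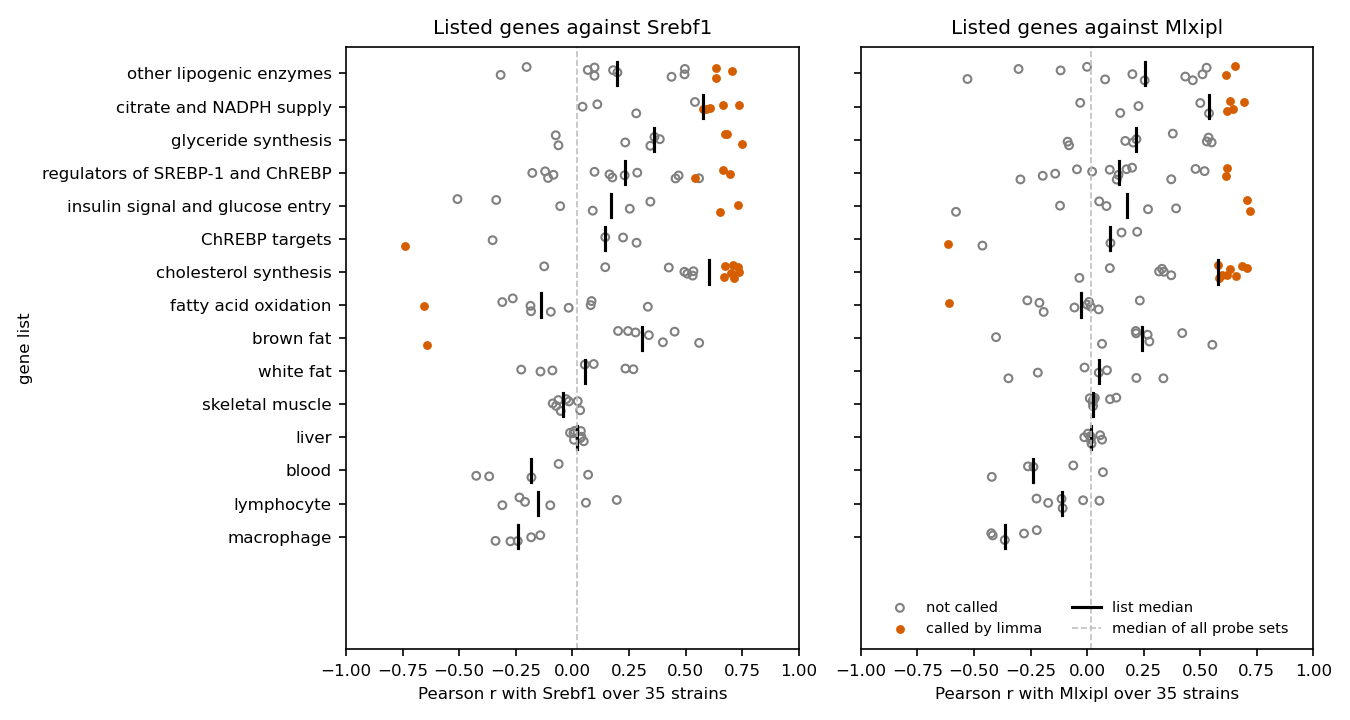
Pearson's r over 35 BXD strains of each listed gene with *Srebf1* (left) and *Mlxipl* (right), with called genes filled, the list median as a bar and the median of all probe sets, 0.02, as a dashed line. Called genes lie to the right in the lipogenic, supply and cholesterol lists, and *Txnip* and *Cpt1a* lie to the left in both panels.

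Markers of other cell types were set beside these results. Of 7 white fat, 8 skeletal muscle, 8 liver, 5 blood, 6 lymphocyte and 5 macrophage genes, limma called 0 with either regulator. At an unadjusted permutation p under 0.05 there were 2 blood genes and 1 macrophage gene with *Srebf1*, and 2 white fat genes, 1 blood gene and 3 macrophage genes with *Mlxipl*. The largest values were -0.424 for *Cd68* of macrophages with *Mlxipl* and -0.425 for *Alas2* of red cells with *Srebf1*, while muscle genes lay between -0.09 and 0.13 and liver genes between -0.01 and 0.07 with either regulator. With the mean of the 8 enzyme and accessory genes, the values were -0.539 for *Adgre1* and -0.527 for *Cd68* of macrophages, and -0.491 for the macrophage and -0.461 for the blood list mean. The macrophage list mean was lowest in BXD87 at 8.74 and highest in BXD61 at 10.74, with a median of 9.50, so that it was low in the strain with the highest lipogenic levels and high in the strain next to the lowest. In BXD85 it was 9.54, near the median, while *Acta1* was low there at 12.57 and *Alb* raised at 10.34. With the macrophage mean as a covariate 4 of the 8 enzyme and accessory genes were called with *Srebf1* and 2 (*Acly* and *Thrsp*) with *Mlxipl*, and with the blood list mean 4 and 3. Calls over all 41154 probe sets changed too, from 400 with *Srebf1* and 140 with *Mlxipl* without a covariate. They were 354 and 33 with the macrophage mean, and 257 and 51 with the blood mean. The r of the 6 genes called without a covariate lay between 0.529 and 0.718 with *Srebf1* and between 0.507 and 0.687 with *Mlxipl* given the macrophage mean. Given the blood mean it lay between 0.503 and 0.696 with *Srebf1* and between 0.524 and 0.688 with *Mlxipl*.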

How the data were processed

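BAT of 35 BXD strains and both parents was hybridised to Affymetrix arrays, 1 array per strain from pooled RNA. The deposited table holds 41345 probe sets and 37 arrays. The values in it are scores, made by the authors by giving every array the same mean, 8, and the same standard deviation, 2. The submitters' processing notes name Affymetrix Expression Console. The summary method, log base and genome build are not given in the sources used here. Array controls, 190 in number, were left out, and no column of values was unused. Arrays have no read depth, so their number and the background limit the precision.

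The tests had been planned for values of this kind and use them as they are. Of several probe sets for 1 gene, the brightest was taken. Slopes were fitted with limma 3.58.1 (lmFit and eBayes) in R 4.3.3 over 35 strains, with Benjamini-Hochberg adjustment over all probe sets and a threshold of 0.05. Pearson's r and Spearman's rho were tested with 100000 permutations (two-sided) in Python 3.11.15 with numpy 2.4.6, scipy 1.17.1 and pandas 2.3.3, and figures were drawn with matplotlib 3.10.9. Of 45 member pairs, r was also taken without the 2 strains farthest from the median. The fit was tested on simulated data for *Srebf1* over 41154 transcripts, with noise drawn independently for each transcript. Slopes were set in SDs of this noise per SD of *Srebf1*. Of 200 transcripts with a slope of 1.5, 100% were recovered with 17 false calls, and at 0.5, 2% with 0 false calls. Slopes between these settings were not simulated, and real transcripts covary. The share recovered at the correlations reported here is therefore not known.

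The genes and lists were chosen with earlier results of these data known. Beside the 10 genes, the text names the 5 genes with the highest and the 3 with the lowest r with each regulator and with the lipogenic mean, the 3 genes of each list with the largest absolute r for the lists described gene by gene, and *Alb*, *Acta1*, *Ucp1* and *Lep*. Of the genes this rule names, 2 are not reported here. Older symbols were matched through RefSeq, and *Cpt1b* and *Hba-a1* were not matched. *Insig1* and the strains described one by one were chosen after their values were seen. The alternatives were both parents included, quantile normalization, median centring, strains left out, covariates for muscle, macrophage or blood genes or for principal component 1, ranks, a filter on dim probe sets, the mean of probe sets and a stricter threshold.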

Additional observations from a re-analysis of the deposited data

How the results depend on the processing

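The number of member pairs that covaried, 34, was within 26 and 37 under all 14 alternatives run and within 30 and 35 without single strains. The partial slopes were called at 0 of 8 genes under every alternative run. The number of enzyme and accessory genes called with *Srebf1*, 6, was 3 without the 2 farthest strains and between 4 and 7 without single strains. With *Mlxipl*, 6, it was 1 without the 2 farthest strains, and among alternatives chosen after the data had been seen 2 with the macrophage mean as a covariate, 3 with the blood mean and 3 without BXD85 and BXD87. Without single strains it was between 4 and 7.

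Counts over all probe sets moved more. The 400 transcripts called with *Srebf1* became 851 with both parents, 106 without the 2 farthest strains, 637 without dim probe sets, 115 at an adjusted p of 0.01, 257 with the blood mean and 186 without BXD85 and BXD87. Without single strains they ran from 165 to 472, with 165 without BXD45, 254 without BXD83 and 226 without BXD87. The 140 called with *Mlxipl* became 455, 50, 217, 35, 51 and 40 under the same settings, 81 after quantile normalization and 33 with the macrophage mean. Without single strains they ran from 44 to 184, with 44 without BXD45, 86 without BXD84, 73 without BXD87, 80 without BXD97 and 91 without BXD103. The stricter threshold and the smaller number of probe sets change these counts by their construction, and otherwise the cause was not tested. Of 252 single correlations with a regulator, 213 kept their side of the threshold, 33 lost a call, 6 gained it and 0 reversed. Of 60 ranges, 50 moved by less than 1 SD. No paired analysis was possible because the labels carry no replicate numbers and each strain has 1 array.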
